A study of Mus musculus with 12 samples.

Results

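The genes described here are 35 genes of the acute phase response and of interleukin 6 (IL-6) signalling, leaving aside the serum amyloid A genes 1 to 3 and lipocalin 2. A probe set of the array was used for a member when the array's annotation assigned it to that gene alone, and where several were available the one with the highest mean signal in the tissue was taken. Of the 35 members, 32 had such a probe set, out of 13710 genes of the array that did. C3, C4b and Serpina3m had none, and for C4b a probe set shared between genes was not used. All 32 were listed on at least 1 liver array and 22 on at least 1 lung array.

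In the acute phase response, hepatocytes change their output of plasma proteins when cytokines released from macrophages and other cells reach the liver. IL-6 binds its receptor Il6ra, which signals through the shared subunit Il6st (gp130) to the transcription factor Stat3, while interleukin 1 acts through Il1r1 and NF-kB, and the C/EBP factors Cebpb and Cebpd act with both. Their targets include carriers of haem and haemoglobin, fibrinogen, protease inhibitors and complement proteins, and Socs3 is induced by Stat3 and shuts the IL-6 signal down.

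Male FVB/N mice were fed, from weaning and for 6 weeks, a selenium-deficient torula yeast diet to which no selenium (0 Se) or 0.1 ppm selenium (0.1 Se) had been added as selenite. RNA of liver and lung from both diets was hybridized to Affymetrix mouse genome arrays, with 3 arrays of biological replicates in each of 4 groups and 12 arrays in all. All 4 groups thus shared the strain, the sex and the selenium-deficient base diet. The deposited values are log2 signals, and a cell is blank where the signal was called absent or did not reach 100 (6.64 on the log2 scale). The liver arrays listed 17235 to 17923 probe sets each and the lung arrays 22197 to 22718. The mean of 9 hepatocyte markers was 14.41 to 14.72 on the liver arrays and 6.73 to 7.01 on the lung arrays, and the mean of 9 markers of lung epithelium was 14.01 to 14.56 in lung and 7.23 to 7.27 in liver, so the tissue labels fitted their markers. In these means, blanks were set to the lowest value.

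Promoter sequence was available for 25 of the 35 members (29 promoters, RefSeq, build GRCm38.p6), and the 250 bases before each transcription start were searched on both strands. The palindromic core bound by STAT factors, TTCNNNGAA, occurred in 7 of the 29 promoters (24.1%) and in 7.02% of all 32851 promoters. The short IL-6 response element CTGGGAA occurred in 27.6% of the member promoters and 9.1% of all, and the C/EBP form TTNNGNAAT in 27.6% and 10.2%. Matches of these 3 forms did not overlap one another in the member promoters. Windows around the matches are shown because Stat3 and its partners are themselves members. In the following 6 windows the capitals mark TTCNNNGAA.
Apcs, chr1:172895270-172895304, minus strand: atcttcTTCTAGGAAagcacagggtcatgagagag
Fga, chr3:83025903-83025947, plus strand: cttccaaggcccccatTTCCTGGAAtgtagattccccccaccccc
Fgb, chr3:83049997-83050045, minus strand: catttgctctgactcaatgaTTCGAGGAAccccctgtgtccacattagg
Agt, chr8:124569850-124569898, minus strand: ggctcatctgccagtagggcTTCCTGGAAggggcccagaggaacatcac
Socs3, chr11:117969492-117969540, minus strand: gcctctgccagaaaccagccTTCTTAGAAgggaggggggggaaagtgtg
Itih4, chr14:30886405-30886453, plus strand: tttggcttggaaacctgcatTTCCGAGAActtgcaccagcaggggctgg

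The promoter of Steap4 is shown with 3 of the forms in capitals, in a window of 94 bases that includes 20-base flanks. The IL-6 response element comes first (on the other strand), then the STAT form and last the C/EBP form.
Steap4, chr5:7960320-7960413, plus strand: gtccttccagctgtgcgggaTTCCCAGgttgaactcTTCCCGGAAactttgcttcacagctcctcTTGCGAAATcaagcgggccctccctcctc

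A few further members described at length below are shown with the C/EBP form (Il1r1 at both of its starts, Orm2) or CTGGGAA (Lrg1) in capitals, the C/EBP form on either strand.
Il1r1, first start, chr1:40224905-40224953, plus strand: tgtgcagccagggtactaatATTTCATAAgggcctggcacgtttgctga
Il1r1, second start, chr1:40266336-40266378, plus strand: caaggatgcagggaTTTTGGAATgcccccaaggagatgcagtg
Orm2, chr4:63362320-63362368, plus strand: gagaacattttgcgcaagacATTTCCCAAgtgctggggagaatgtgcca
Lrg1, chr17:56122022-56122068, minus strand: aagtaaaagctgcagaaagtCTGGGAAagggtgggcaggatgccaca

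The first comparison asked whether the added selenium changed these genes in liver. Of the 31 members tested (at least 2 values in each diet), 0 passed limma's test at adjusted p 0.05, where 0.0121% of all 16575 probe sets did. Most members nevertheless lay on the same side. The 0.1 Se minus 0 Se difference was above 0 for 29 of 31 (93.5%), against 49% of all probe sets tested, with a median of 0.23 (range -0.07 to 0.85) against -0.005 for all. At an unadjusted p under 0.05 there were 9 members higher in 0.1 Se (2.94% of all probe sets) and 0 lower (3.71% of all). With the methods' t-test, 3 members were higher at that threshold and 0 passed after adjustment. Of the 30 members with 6 values, the 0.1 Se arrays lay wholly above the 0 Se arrays for 4 (4.99% of all probe sets with 6 values) and wholly below for 0 (7.22% of all). Bright liver probe sets leaned the same way in general. Among the 1068 probe sets with a mean of 13 or over, 61.9% were above 0 with a median of 0.03, while 14 of the 15 members in that range were above 0 with a median of 0.18.

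The receptors showed the largest differences among the roles (median 0.62 over 4 genes, all above 0). Il1r1, the signalling receptor of interleukin 1, had log2 signals of 9.49, 9.56 and 10.13 in 0 Se liver and 10.92, 10.41 and 10.39 in 0.1 Se liver. The groups did not overlap, and replicate 1 of 0.1 Se liver was the highest. The difference was 0.85 ± 0.20 (SE), or 1.80-fold, with a limma adjusted p of 0.462. Il1r1 was among the genes that the study had named from these arrays, so its direction is not independent evidence.

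Il6ra, the ligand-binding receptor of IL-6, was listed at 9.82, 9.59 and 10.49 in 0 Se liver and at 11.28, 10.76 and 10.40 in 0.1 Se liver. Replicate 3 of 0 Se lay above replicate 3 of 0.1 Se, so the groups overlapped, and the difference of 0.85 ± 0.25 had a limma adjusted p of 0.594. Osmr, the receptor subunit of oncostatin M, was a dim gene in liver with 7.33, 7.54 and 7.25 in 0 Se and 7.51, 8.07 and 7.71 in 0.1 Se. The groups overlapped by a narrow margin (difference 0.39 ± 0.20, limma adjusted p = 0.792, and 0.24 without 0.1 Se liver replicate 2). Il6st, the shared signal transducer, lay between 11.57 and 11.83 on every liver array and differed by 0.08 ± 0.10. Dimmer Il6st probe sets were at 0.12 and -0.17.

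Among the genes of signalling, feedback and transcription, all 6 tested had differences above 0, with a median of 0.38. Steap4, a metalloreductase induced by inflammatory cytokines, gave 11.33, 11.33 and 11.65 in 0 Se liver and 12.33, 11.99 and 11.76 in 0.1 Se liver. Its groups did not overlap, and the difference was 0.59 ± 0.15 (1.5-fold, limma adjusted p = 0.492). A second, dimmer Steap4 probe set differed by 0.51. Stat3 gave 11.11, 10.72 and 10.99 in 0 Se liver and 11.11, 11.61 and 11.38 in 0.1 Se liver. Replicate 1 of the 2 diets was equal to 2 decimals, and the difference was 0.43 ± 0.15 (limma adjusted p = 0.64), with 0.26 on another probe set.

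The remaining transcription and feedback genes varied more within a diet than between diets. Socs3, the feedback inhibitor, is given by array because its spread stood out once the values were seen, with 8.52, 9.02 and 9.33 in 0 Se liver and 8.33, 10.50 and 9.11 in 0.1 Se liver. Both the lowest and the highest of the 6 arrays were 0.1 Se arrays, and the SD of that group was 1.10. Cebpb spanned 12.22 to 13.84 and differed by 0.41 ± 0.30, Cebpd spanned 8.58 to 9.67 and differed by 0.28 ± 0.24, and Nfkbiz, an inducible nuclear IkB protein, differed by 0.09 ± 0.14. A dimmer Nfkbiz probe set was at -0.08. Il1rn, the secreted antagonist of the interleukin 1 receptor, was listed on 1 liver array, replicate 2 of 0.1 Se (7.80), and was not tested.

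All 7 carriers and scavengers were above 0, with a median of 0.23. Orm2, an orosomucoid that carries small basic and lipophilic compounds in plasma, gave 9.45, 9.52 and 9.90 in 0 Se liver and 10.16, 10.91 and 9.90 in 0.1 Se liver. The groups did not overlap, although replicate 3 of the diets differed by less than 0.01, and replicate 2 of 0.1 Se stood highest. The difference was 0.70 ± 0.23 (1.63-fold, limma adjusted p = 0.635), and without 0.1 Se liver replicate 2 it was 0.41.

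Lrg1, a leucine-rich plasma glycoprotein, had tight 0 Se values of 12.70, 12.73 and 12.79, and 0.1 Se values of 12.79, 13.44 and 13.48. Replicate 1 of 0.1 Se sat within the 0 Se group while the other 0.1 Se arrays were well above it. The difference was 0.49 ± 0.16 (limma adjusted p = 0.625), and without 0.1 Se liver replicate 1 it was 0.72 with a limma adjusted p of 0.0336, the one setting in which a member passed in liver.

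Orm1, the other orosomucoid tested, gave 14.57, 14.68 and 14.89 in 0 Se liver and 14.89, 14.92 and 15.004 in 0.1 Se liver. Its 0.1 Se values lay close together at the top of the 0 Se range (difference 0.23 ± 0.10, limma adjusted p = 0.747). Hp, haptoglobin, which binds free haemoglobin, showed a similar arrangement with 14.67, 14.84 and 15.02 in 0 Se and 14.96, 15.08 and 15.05 in 0.1 Se (difference 0.19 ± 0.10, limma adjusted p = 0.808, and 0.10 without 0 Se liver replicate 1). The carriers left were Saa4, the constitutive serum amyloid A, at 0.26 ± 0.14, the haem carrier Hpx at 0.18 ± 0.11 and the copper-binding ferroxidase Cp at 0.07 ± 0.10. The 7 other liver probe sets of Cp ranged from -0.30 to 0.13.

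The fibrinogen group held its difference in 1 gene. Fgl1, a fibrinogen-like protein secreted by hepatocytes, gave 13.25, 12.81 and 13.34 in 0 Se liver and 13.17, 14.19 and 13.73 in 0.1 Se liver. Replicate 1 of 0.1 Se lay below 2 of the 0 Se arrays, and the other 0.1 Se arrays lay above all of them. The difference was 0.57 ± 0.22 (1.48-fold, limma adjusted p = 0.699), and 0.32 without 0.1 Se liver replicate 2. The study had named this gene from other liver assays. The genes of the 3 fibrinogen chains differed little, Fga by -0.02 ± 0.10, Fgb by 0.12 ± 0.11 and Fgg by 0.09 ± 0.11.

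Of the protease inhibitors and substrates, Itih4, an inter-alpha-trypsin inhibitor heavy chain, gave 14.70, 14.73 and 14.89 in 0 Se liver and 14.90, 15.03 and 15.05 in 0.1 Se liver. The groups did not overlap, yet the highest 0 Se and the lowest 0.1 Se array were 0.01 apart. The difference was 0.22 ± 0.09 (1.16-fold, limma adjusted p = 0.732). Itih3 differed by 0.13 ± 0.09, the serpin Serpina3n by 0.14 ± 0.12 and Agt, angiotensinogen, by -0.07 ± 0.11.

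All 6 pattern recognition and complement genes tested were above 0, with a median of 0.20 and none at an unadjusted p under 0.05. Lbp, which passes bacterial lipopolysaccharide to Cd14, gave 11.29, 11.00 and 11.29 in 0 Se liver and 11.28, 11.62 and 11.38 in 0.1 Se liver, with overlapping groups (difference 0.23 ± 0.12, limma adjusted p = 0.798, and 0.13 without 0.1 Se liver replicate 2). Apcs, the pentraxin that is the classical acute phase protein of the mouse, spanned 13.34 to 14.26 with its highest value in replicate 2 of 0.1 Se, and differed by 0.31 ± 0.19. Crp, a pentraxin that changes little in mice, differed by 0.11 ± 0.10. The complement factor gene Cfb differed by 0.18 ± 0.11, the lipopolysaccharide co-receptor gene Cd14 by 0.23 ± 0.32 (2 values in 0.1 Se) and Pigr, the transporter of polymeric antibodies, by 0.07 ± 0.12. The other liver probe set of Pigr was at -0.03.

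**Figure D1:**
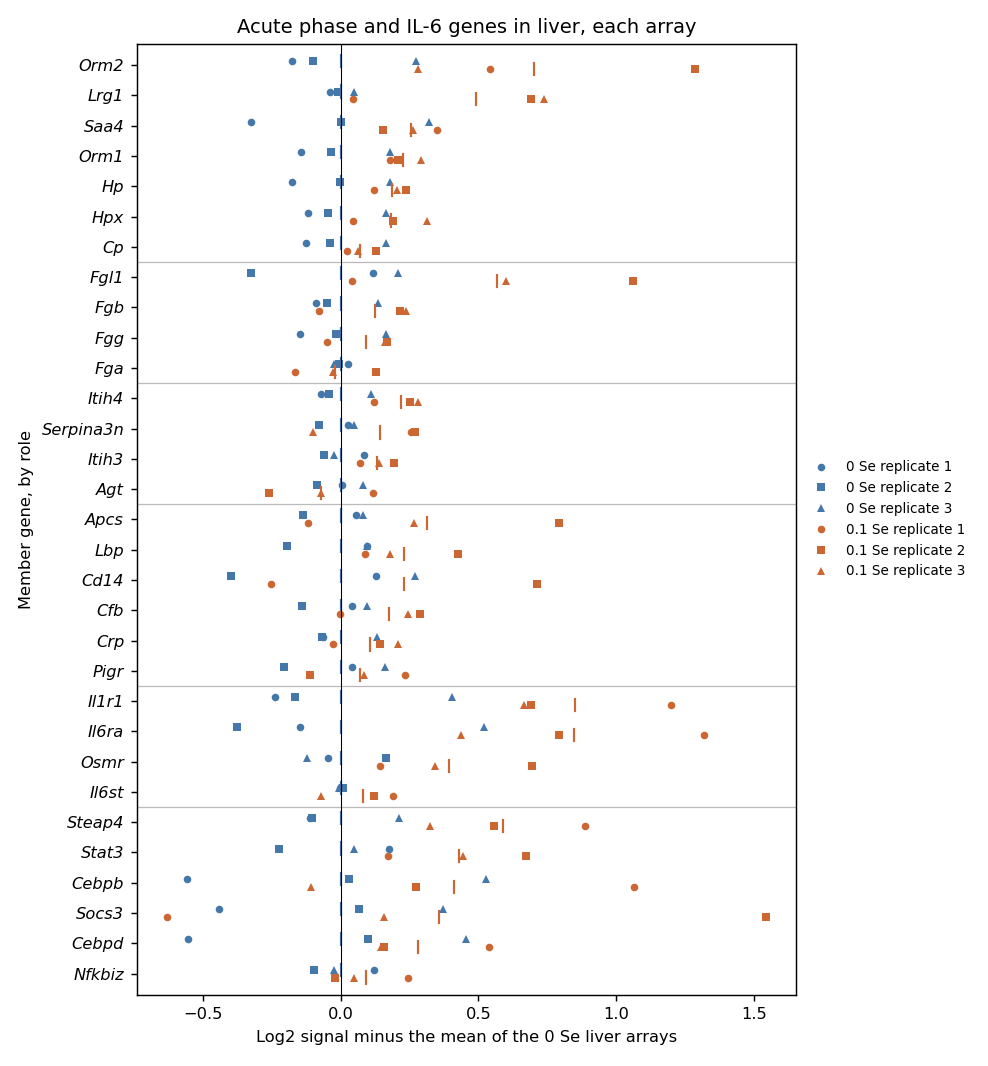
Log2 signal of the 31 tested member genes on each liver array, minus the mean of the 0 Se liver arrays, grouped by role (symbols, replicates; vertical ticks, means of a diet with n = 3, except Cd14 with 2 in 0.1 Se). The 0.1 Se means lie right of 0 for 29 genes, but the individual arrays of the diets are apart for Orm2, Itih4, Il1r1 and Steap4 alone.

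The members did not all peak in the same mouse. Of the 30 with 6 values, 13 were highest in 0.1 Se liver replicate 2 (among them Orm2, Fgl1, Stat3, Osmr, Lbp, Apcs and Socs3), 10 in replicate 1 (Il1r1, Il6ra, Steap4, Cebpb and Cebpd among them), 6 in replicate 3 and 1, Cp, in 0 Se liver replicate 3. The lowest array was 0 Se liver replicate 1 for 14 and replicate 2 for 10. Socs3 and Cebpb show the contrast within 0.1 Se liver: Socs3 was at 8.33 in replicate 1 and 10.50 in replicate 2, and Cebpb at 13.84 and 13.05. Without 0.1 Se liver replicate 2, 28 of 30 members stayed above 0 with a median of 0.16, and 5 had an unadjusted p under 0.05 in place of 9. Without 0 Se liver replicate 2 that count was 5 as well.

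The members whose promoter held TTCNNNGAA did not stand apart in liver. Their median difference was 0.22 over 7 genes (range -0.07 for Agt to 0.59 for Steap4), and the median of the 16 other tested members with a promoter was also 0.22 (0.07 to 0.85).

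Related lists were read in the same way. Of 16 tested genes of other positive acute phase proteins, 14 were above 0 (median 0.21) and 6 had an unadjusted p under 0.05, all higher, with 0 past adjustment. The smallest p-values belonged to Saa1 (1.31 ± 0.26, limma adjusted p = 0.379), Ifitm3, an interferon-inducible membrane protein (0.37 ± 0.09, adjusted p = 0.486), and Lcn2, which binds bacterial siderophores (1.80 ± 0.45, adjusted p = 0.492). Saa1 and Lcn2 had been named in the study too. Like Orm2, these 3 were highest in 0.1 Se liver replicate 2.

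The genes that fall in an acute phase response did not go the other way. Of 11 tested, 10 were above 0, with a median of 0.10 and 0 at an unadjusted p under 0.05, and a range from -0.02 to 0.18. Alb differed by 0.16 ± 0.11 and the apolipoprotein gene Apoa4 by 0.18 ± 0.13.

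In the rest of the IL-6 pathway, 7 of 11 tested genes were above 0 with a median of 0.025. Pim1, a kinase gene induced by STAT factors (0.78 ± 0.27, limma adjusted p = 0.64), and Adam17, the protease that sheds the IL-6 receptor (0.44 ± 0.17, adjusted p = 0.684), had unadjusted p-values under 0.05, while Lifr, the receptor subunit for leukaemia inhibitory factor, differed by -0.19 ± 0.11. Ctf1, which encodes the IL-6 family cytokine cardiotrophin, was listed on the 3 arrays of 0.1 Se liver (8.74, 8.98 and 8.97). It was blank on the 3 of 0 Se liver, so it was not tested in the main fit. With blanks at the lowest value, which gives 0 Se no spread, Ctf1 differed by 2.25 ± 0.13 (limma adjusted p = 0.0618). This gene was singled out after its values were seen.

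Of 7 tested genes of the interleukin 1 and NF-kB pathway, 6 were above 0 (median 0.24) with 0 at an unadjusted p under 0.05, and the largest difference was that of the kinase gene Ikbke (0.45 ± 0.23). Of 10 glucocorticoid-responsive genes, 9 were above 0 (median 0.19), led by the transcription factor gene Zbtb16 (1.67 ± 0.34, limma adjusted p = 0.416) and the chaperone gene Fkbp5 (0.66 ± 0.27, adjusted p = 0.704). Both had been named in the study, Fkbp5 from another liver assay and Zbtb16 from these arrays among others. The direction of Zbtb16 is thus not independent evidence either. Each had its highest liver value in 0.1 Se replicate 1, as Il1r1, Il6ra and Steap4 did.

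Markers of Kupffer cells and macrophages leaned higher in 0.1 Se liver. All 12 were above 0 (49% of all probe sets), with a median of 0.37. At an unadjusted p under 0.05, 6 were higher (2.94% of all). The 0.1 Se arrays lay wholly above the 0 Se arrays for 7 (4.99% of all probe sets with 6 values). None passed adjustment, and the lowest limma adjusted p was 0.441, for Marco. The study had named Marco from these arrays, so its direction is not independent evidence. The mean of the 12 markers per array was 10.04 to 10.44 in 0 Se and 10.54 to 10.84 in 0.1 Se liver, and it was highest in 0.1 Se replicate 2. Of 7 neutrophil markers, Csf3r, Cxcr2, Mmp8, Mmp9 and Ngp were blank on every liver array, S100a8 was listed on 1 array of 0 Se and 3 of 0.1 Se, and S100a9 was listed on replicate 2 of 0.1 Se alone (8.04). The hepatocyte markers overlapped between diets (14.41 to 14.72 against 14.55 to 14.69), and all but Apob and Tdo2 were above 0. Their lowest arrays were 0 Se replicates 1 (14.425) and 2 (14.408). Of all liver probe sets with a mean of 13 or over, 61.9% were above 0. Markers of fibroblasts and stellate cells (8.82 to 9.22 against 8.94 to 9.63) and of plasma and B cells (6.93 to 6.95 against 6.75 to 7.02) overlapped as well. The part of these cell types in the members' differences was not tested, and in whole tissue a different number of cells and a different amount of RNA per cell cannot be told apart.

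The second comparison asked the same of lung. There 19 members could be tested, 0 passed limma's test at adjusted p 0.05 (0.0924% of all 21655 probe sets passed), and the median difference was -0.07 against -0.008 for all. Differences were above 0 for 8 of 19 (42.1%, against 47.9% of all probe sets). At an unadjusted p under 0.05, 4 members were lower in 0.1 Se (4.12% of all) and 0 were higher (3.55% of all), and the methods' t-test gave 2 lower, with 0 past adjustment. The same 4, Cp, Pigr, Hp and Lbp, had 0.1 Se arrays wholly below the 0 Se arrays (6.86% of all probe sets with 6 values), and 0 had them wholly above (6.07% of all).

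Cp gave 12.96, 12.97 and 12.89 in 0 Se lung and 12.53, 12.27 and 12.65 in 0.1 Se lung. The 0 Se arrays agreed within 0.1, and each 0.1 Se array lay below them. The difference was -0.46 ± 0.11 (1.37-fold lower, limma adjusted p = 0.242). Its other probe sets in lung were lower by less or not at all, from -0.33 to 0.04, and with the mean over the probe sets of the gene the value was -0.22.

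Pigr had the largest lung difference of any member. It gave 10.65, 10.10 and 10.39 in 0 Se lung and 9.81, 8.34 and 9.54 in 0.1 Se lung, so the lowest array was 0.1 Se replicate 2 by over 1 log2 unit. The difference was -1.15 ± 0.31 (2.23-fold lower, limma adjusted p = 0.337), a second probe set gave -0.98, and without 0.1 Se lung replicate 2 the value was -0.71.

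Hp gave 14.12, 14.11 and 14.38 in 0 Se lung and 13.81, 13.70 and 13.93 in 0.1 Se lung, with no overlap and a similar spread in both diets. Its difference was -0.39 ± 0.12 (1.31-fold lower, limma adjusted p = 0.406). Hp was the one member with a lung mean of 13 or over, and of the 690 lung probe sets in that range 28.8% were above 0, with a median of -0.05. Lbp gave 10.54, 10.67 and 10.72 in 0 Se lung and 10.47, 9.9998 and 10.51 in 0.1 Se lung. The groups were narrowly apart, replicate 2 of 0.1 Se was again the lowest, and the difference was -0.32 ± 0.13 (limma adjusted p = 0.605), or -0.16 without that array.

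Cfb was the member with the largest positive lung difference, with 8.30, 8.42 and 8.08 in 0 Se and 8.62, 8.40 and 8.70 in 0.1 Se. The groups overlapped (0.31 ± 0.16, limma adjusted p = 0.706). Cebpd gave 12.32, 12.61 and 13.03 in 0 Se lung and 12.78, 11.98 and 12.08 in 0.1 Se lung, an overlap with a difference of -0.37 ± 0.21 (limma adjusted p = 0.762) that ranged from -0.62 to -0.18 as single arrays were left out. Neither gene separated the diets.

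Il6ra in lung gave 9.76, 9.997 and 10.46 in 0 Se and 10.09, 10.46 and 10.36 in 0.1 Se, and the 0.1 Se values lay inside the 0 Se range (0.23 ± 0.17, limma adjusted p = 0.823). Leaving out single arrays gave 0.07 to 0.43 for this gene. Lrg1 gave 9.88, 9.39 and 9.26 in 0 Se lung and 10.03, 8.22 and 9.14 in 0.1 Se lung. The 0.1 Se arrays included both extremes, and the difference of -0.38 ± 0.36 became 0.08 without 0.1 Se lung replicate 2 and -0.83 without replicate 1. The remaining 11 members tested lay between -0.15 for Cd14 and 0.15 for Socs3. Some had other lung probe sets on the opposite side of 0. These were Socs3 (-0.16 and -0.32), Nfkbiz (-0.23), Stat3 (-0.21) and Il6st (0.13). Il1r1, which had the largest difference in liver, differed by 0.005 ± 0.12 in lung.

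**Figure D2:**
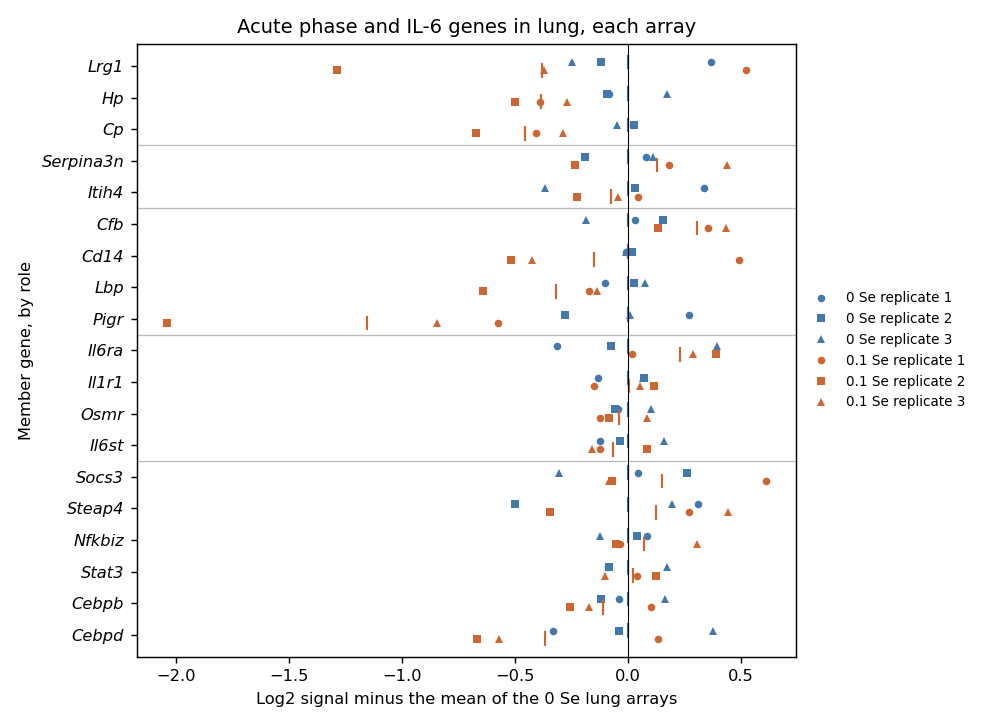
Log2 signal of the 19 tested member genes on each lung array, minus the mean of the 0 Se lung arrays, grouped by role (symbols, replicates; vertical ticks, means of a diet with n = 3). The 0.1 Se arrays of Hp, Cp, Lbp and Pigr lie wholly left of the 0 Se arrays, and 0.1 Se replicate 2 is the lowest array for 9 of the 19 genes.

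Replicate 2 of 0.1 Se lung was the lowest array for 9 of the 19 members, and 0 Se lung replicate 3 was the highest for 8. Without 0.1 Se lung replicate 1, 7 members in place of 4 were lower at an unadjusted p under 0.05. The neutrophil marker mean was 7.53 to 8.24 in 0 Se and 8.22 to 9.28 in 0.1 Se lung, highest in 0.1 Se replicate 1, which was also the highest array for Cd14, Socs3 and Lrg1. Among the neutrophil markers tested, S100a9 (1.70 ± 0.49), S100a8 (1.64 ± 0.54) and Csf3r (1.08 ± 0.33) had 0.1 Se arrays wholly above the 0 Se arrays. That held for 6.07% of all probe sets with 6 values. Their limma adjusted p-values were 0.389, 0.459 and 0.432, and Mmp9 was at -0.06 ± 0.28. The fibroblast markers were below 0 for 9 of 9 (11.33 to 11.60 against 11.06 to 11.35), where 47.9% of all probe sets were above 0. Of 9 markers of lung epithelium, 7 were below 0 (14.31 to 14.56 against 14.01 to 14.44). Most of these epithelial markers were bright, and of the 690 lung probe sets with a mean of 13 or over 28.8% were above 0. Of 7 tested macrophage markers, all were above 0. Marco (6.67), Timd4 (7.25 and 7.11) and Vsig4 (6.85) were listed on 0 Se lung arrays alone, so they were not tested. The mean of all 12 macrophage markers, with blanks at the lowest value, was 8.41 to 8.51 in 0 Se and 8.47 to 8.73 in 0.1 Se lung. The 4 plasma and B cell markers were all below 0 (8.39 to 9.38 against 8.65 to 9.02). Their part in the members' differences was not tested.

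In lung the related lists were spread around 0. Of 10 tested genes of other positive acute phase proteins, 5 were above 0 (median 0.02), and the 2 at an unadjusted p under 0.05 were the metallothionein genes Mt1 (-0.85 ± 0.30, limma adjusted p = 0.519) and Mt2 (-0.64 ± 0.26, adjusted p = 0.594). Of 14 other IL-6 pathway genes, 8 were above 0 (median 0.01), with Junb at -0.42 ± 0.19 the one gene at an unadjusted p under 0.05. Of 10 interleukin 1 and NF-kB genes, 6 were above 0 (median 0.03), and Relb, an NF-kB subunit, was at -0.38 ± 0.15 with 0.1 Se arrays wholly below. Both negative acute phase genes tested, Igf1 and Rbp4, were below 0. Of 9 glucocorticoid-responsive genes, 6 were above 0 (median 0.12), with Zbtb16 at 1.63 ± 0.37 (adjusted p = 0.227), Fkbp5 at 0.88 ± 0.22 (adjusted p = 0.298) and Dusp1 at -0.64 ± 0.18 (adjusted p = 0.371).

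Whether the diet response differed between the tissues was fitted as an interaction across the 12 arrays (response in lung minus response in liver, each gene on the same probe set in both). Of 19 members, 0 passed at adjusted p 0.05, as did 0% of all 15112 probe sets. At an unadjusted p under 0.05 there were 6 members, all with the lower response in lung, against 6.16% of all probe sets in either direction. The response was lower in lung for 18 of 19, with a median of -0.47, and Cfb was the exception. Each of the 19 was above 0 in liver, which favours a lower response in lung, so the count of 18 is not a separate result. The share of all probe sets with a lower response in lung was not computed. Hp had the smallest p, with a diet difference of 0.19 in liver and -0.39 in lung (interaction -0.57 ± 0.15, limma adjusted p = 0.61). Its arrays in both tissues are given above, and bright probe sets as a whole leaned up in liver (61.9% above 0) and down in lung (28.8%).

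Cp, whose liver values were 15.38, 15.47 and 15.67 in 0 Se and 15.53, 15.63 and 15.57 in 0.1 Se, had an interaction of -0.53 ± 0.15 (limma adjusted p = 0.655). The liver groups overlapped, and with the mean over the probe sets of the gene the interaction was -0.17. Il1r1 was the opposite case, with lung values of 9.38, 9.59 and 9.58 in 0 Se and 9.36, 9.63 and 9.57 in 0.1 Se and an interaction of -0.85 ± 0.25 (limma adjusted p = 0.681). Pigr in liver gave 14.50, 14.25 and 14.61 in 0 Se and 14.69, 14.34 and 14.54 in 0.1 Se, with overlapping groups. The interaction of Pigr was -1.22 ± 0.38 (limma adjusted p = 0.7), or -0.78 without 0.1 Se lung replicate 2.

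**Figure D3:**
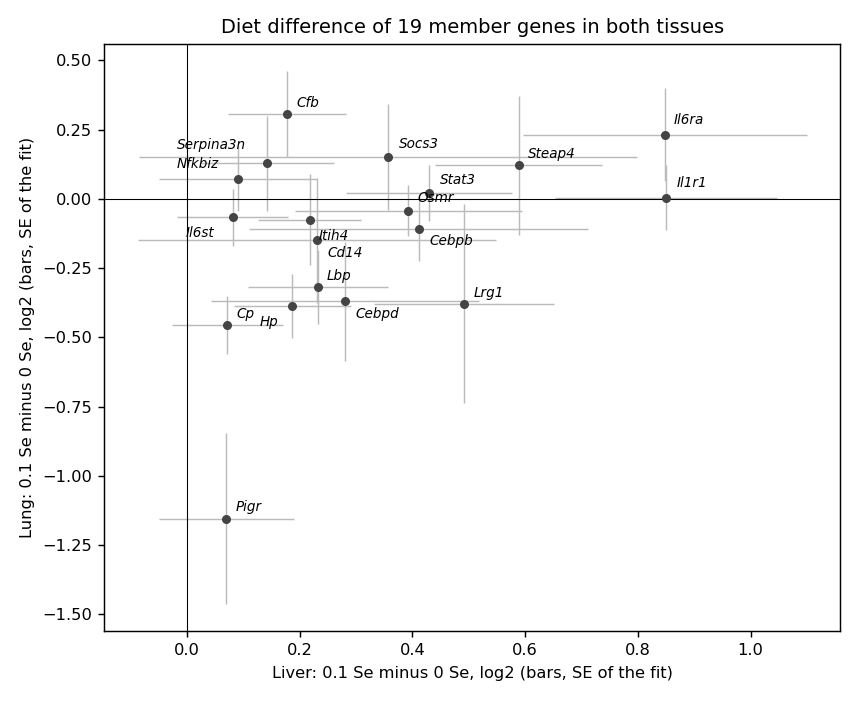
Difference between the diets (0.1 Se minus 0 Se, log2) in liver (x axis) and lung (y axis) for the 19 member genes tested in both tissues, with bars for the SE of the limma fit. All 19 lie right of 0 in liver while 11 lie below 0 in lung, Pigr lowest at -1.15. Il6st is plotted from a different probe set in each tissue.

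The third comparison set liver against lung over both diets, for the 19 members with enough values in both. Of these, 10 were higher in liver at adjusted p 0.05 (33.9% of all 15112 probe sets) and 6 were higher in lung (47.7% of all), so the background held large shares in both directions. The median of all probe sets was -0.18, and the members' median was 0.63. Scaling moved the background: after quantile normalization the median of all was -0.45, with 26.2% higher in liver and 57.5% higher in lung, and after median centring it was 0.015, with 41% and 39.7%. Secreted plasma proteins made up 7 of the 10 on the liver side, and the 6 on the lung side were the receptor gene Osmr, the co-receptor gene Cd14, the feedback inhibitor gene Socs3 and the transcriptional regulators Cebpd, Nfkbiz and Stat3.

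Itih4 showed the largest difference, with liver values from 14.70 to 15.05 (median 14.89) and lung values from 9.44 to 10.14 (median 9.80). No lung array came within 4 log2 units of a liver array, and the liver level was 34.7-fold higher (5.12 ± 0.10 on the log2 scale, limma adjusted p = 7.93e-16). Cfb lay at 13.20 to 13.63 in liver (median 13.41) and 8.08 to 8.70 in lung (median 8.41), a 32.2-fold difference (limma adjusted p = 2.72e-16). Pigr lay at 14.25 to 14.69 in liver (median 14.52) and 8.34 to 10.65 in lung (median 9.96), with the wide lung spread described above, and was 25.6-fold higher in liver (limma adjusted p = 3.03e-12).

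Lrg1 was 12.7-fold higher in liver (12.70 to 13.48, median 12.79, against 8.22 to 10.03 in lung, median 9.32). Steap4 was 9.15-fold higher in liver (11.33 to 12.33, median 11.71, against 7.97 to 8.92, median 8.71). Cp was 7.11-fold higher in liver (15.38 to 15.67, median 15.55, against 12.27 to 12.97, median 12.77). For none of these 3 genes did the tissues overlap, and the limma adjusted p-values were 4.91e-10, 3.57e-11 and 1.82e-14. Serpina3n (4.16-fold), Hp (1.90-fold), Lbp (1.78-fold) and Il1r1 (1.55-fold) were also higher in liver. For Hp the lung was not far behind, with 13.70 to 14.38 against 14.67 to 15.08.

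On the lung side, Osmr was 11.4-fold higher in lung (10.98 to 11.20, median 11.05) than in liver (7.25 to 8.07, median 7.53; limma adjusted p = 6.9e-14). Cebpd was 9.16-fold higher in lung (11.98 to 13.03, median 12.47) than in liver (8.58 to 9.67, median 9.28; limma adjusted p = 1.26e-10). Neither gene had a liver array that reached a lung array. Cd14 (2.89-fold), Socs3 (2.69-fold), Nfkbiz (1.73-fold) and Stat3 (1.30-fold) were higher in lung as well. Il6ra, Il6st and Cebpb did not pass, with differences of 0.20 ± 0.17, 0.10 ± 0.06 and 0.24 ± 0.19. For these 3 the direction followed the scaling, since each was above 0 and passed after median centring and was below 0 after quantile normalization, where Il6st and Cebpb passed. Stat3 kept its direction and did not pass after median centring (-0.18, limma adjusted p = 0.0857), and the other 15 calls held under both scalings.

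The other genes of these pathways had a similar layout. Of 11 other positive acute phase genes tested between tissues, 9 were higher in liver and 1 in lung. Of 11 other IL-6 pathway genes, 9 were higher in lung and 2 in liver, and of 6 interleukin 1 and NF-kB genes, 5 were higher in lung and 1 in liver.

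A further 10 members were listed on all 6 liver arrays and on 0 lung arrays, so that their lung level is known only as blank. They were the 3 fibrinogen genes, Fgl1, the carriers Orm2 and Saa4, the protease-related genes Itih3 and Agt, and the pentraxin genes Crp and Apcs. Median liver signals were 14.81 for Fga, 15.62 for Fgb, 15.54 for Fgg, 13.29 for Fgl1, 9.90 for Orm2, 14.36 for Saa4, 14.06 for Itih3, 12.94 for Agt, 14.10 for Crp and 13.54 for Apcs. These are levels of different probe sets and set no order between the genes. Hpx was listed on 1 lung array, at 6.70 beside a liver median of 15.34, and Orm1 on 4 lung arrays, at 6.72 to 6.88 beside a liver median of 14.89. Both lung levels are near the lowest value listed. The Il1rn probe set listed in liver was blank in lung, where another probe set of the gene was listed on 2 arrays (6.76 in 0 Se and 7.28 in 0.1 Se).

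**Figure D4:**
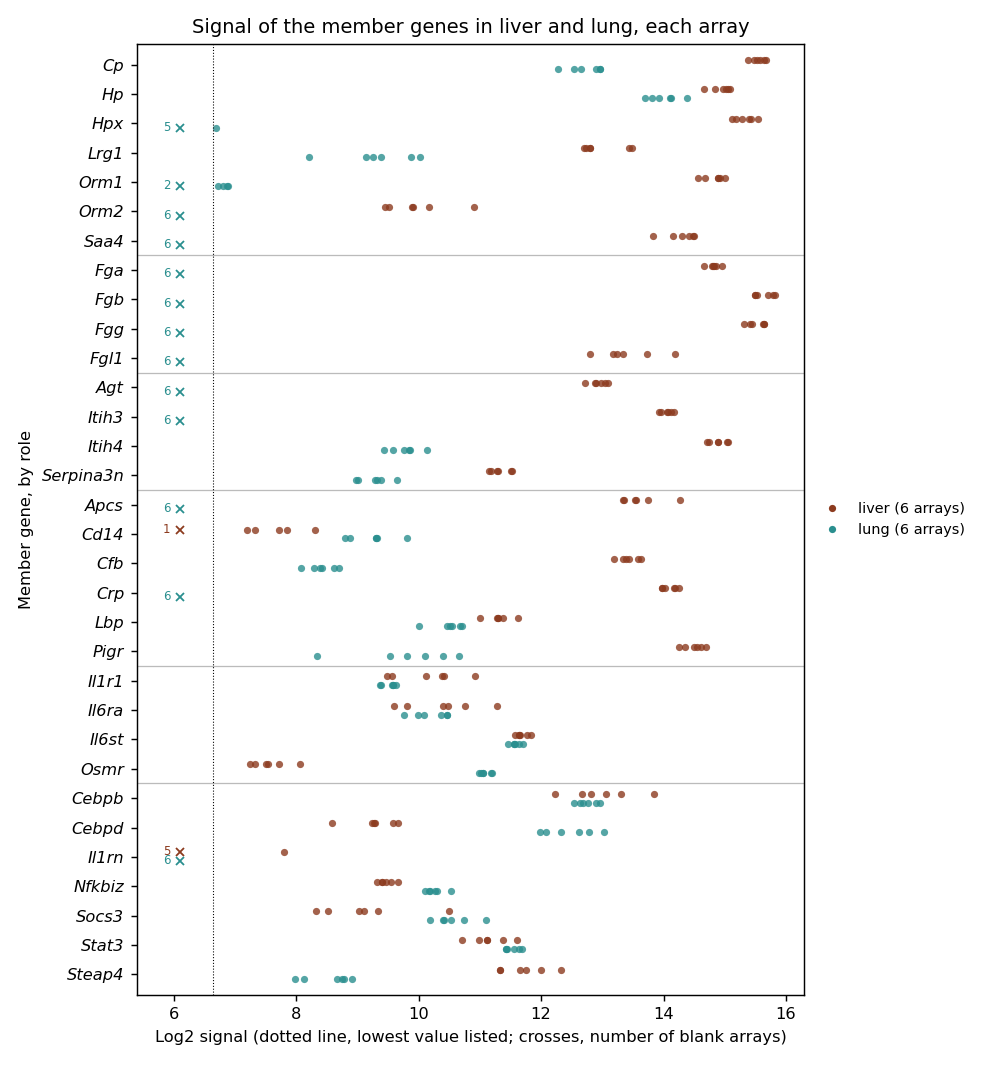
Log2 signal of the 32 member genes with a probe set on each liver and lung array (6 arrays a tissue, both diets), each gene on the same probe set in both tissues and grouped by role. Crosses give the number of blank arrays, and the dotted line is the lowest value listed (6.64). The fibrinogen genes, Fgl1, Crp, Apcs, Itih3, Agt, Orm2 and Saa4 are blank on all 6 lung arrays, and Osmr and Cebpd lie higher in lung.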

How the data were processed

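Total RNA of liver and lung from 3 mice per diet was labelled with biotin and hybridized to Affymetrix mouse genome arrays. The deposited table holds log2 values: the authors computed MAS5 signals for each array with R 2.15.2 and affy 1.36.0, scaled each array on its own, took log2 and left blank what was called absent or lay under a signal of 100; which of the 2 rules emptied a cell cannot be read from the table. Scan dates were not given in the sources used here, so no batch was fitted. Of 29467 probe sets, 58 controls were left out, and of the remaining 29409, 24504 were annotated to 1 gene, 660 to several and 4245 to none. The number of arrays, 3 a group, limits the precision.

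Probe sets with at least 2 values in each group of a comparison were fitted with limma 3.58.1 in R 4.3.3 (lmFit, eBayes with an intensity trend), within each tissue for diet and over 12 arrays for the interaction and the tissue comparison, where a passing probe set had an adjusted p under 0.05 (Benjamini-Hochberg over all probe sets tested). A gene was represented by its single-gene probe set of highest mean signal in the tissue, and the interaction and tissue comparison used the same probe set in both. Fits were tested on simulated data. With 3 arrays against 3 an exact permutation test cannot go below p = 0.1, so none was used. Errors given with ± are standard errors of the fit.

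Array values were given for up to 12 members in liver and 8 in lung by smallest p, for 4 by smallest interaction p and for 8 by largest tissue difference, together with the level of members listed in one tissue only, and up to 3 genes by smallest p were named of each related list. Outside that rule, Ctf1, the array values of Socs3 and of Cebpb, and the neutrophil markers blank in liver or named in lung were given after their values were seen. The members, lists and tests were chosen with earlier results of these data known. Promoter letters came from RefSeq (GRCm38.p6). Alternatives covered the filter on blanks, the scaling, a pseudocount, the trend, the fit, the replicate number as a block, the probe set of a gene, the methods' t-test and leaving out single arrays. Same-numbered arrays did not deviate together (correlations over 13376 probe sets of -0.19, -0.03 and -0.01 in liver and 0.15, -0.17 and -0.02 in lung). Between the tissues the correlations were 0.11, 0.06 and 0.11 in 0 Se and -0.004, 0.02 and -0.04 in 0.1 Se, and whether same-numbered liver and lung arrays came from 1 mouse is not given in the sources used here, so the fits over 12 arrays took them as separate.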

Additional observations from a re-analysis of the deposited data

How the results depend on the processing

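In liver, the count of members higher at an unadjusted p under 0.05 (9) was 2 with blanks at the lowest value and no filter, 3 by the methods' t-test and 5 to 13 with single arrays left out, and the count past adjustment was 0 to 1 (Lrg1, 0.72 without 0.1 Se liver replicate 1). The median of the liver members ranged from 0.15 to 0.28, and 27 of 31 were above 0 after quantile normalization in place of 29. In lung, the count lower at an unadjusted p under 0.05 (4) was 2 with the mean over probe sets, 2 by the methods' t-test and 3 to 7 with single arrays left out, and the count higher (0) was 1 without the trend, 1 with the 12 arrays in one fit and 0 to 1 with single arrays left out. Lrg1 in lung (-0.38) ranged from -0.83 to 0.076 with single arrays left out, above 0 without 0.1 Se lung replicate 2 alone. Between the tissues, 22 members were higher in liver with blanks at the lowest value, in place of 10 (a gene blank on all lung arrays then has lung values with no spread), and their median (0.63) was 3.26 with those blanks, 0.83 with the filter on mean signal, 0.22 after quantile normalization and 0.83 after median centring. No member passed the interaction test under any alternative run. Among single genes, 262 of the values with an array left out and 356 of the other alternatives kept their direction and their side of the threshold. The cause of these shifts was not tested.

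With the replicate number as a block, 1 member passed in lung (Pigr, -1.15, limma adjusted p = 0.0443) and 0 in liver, while 53 lung probe sets passed in all in place of 20. Whether the numbers pair mice of the diets is not given in the sources used here, and same-numbered arrays of the diets did not deviate together. The block changed no other call of a member. A blank limits what can be said: members blank in lung have no lung level there, and 12 of 31 members tested in liver could not be tested in lung.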
